A study of Homo sapiens with 12 samples.

Results

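Death receptors are cell surface receptors of the tumor necrosis factor receptor superfamily that carry a death domain inside the cell. The transcripts examined here encode 4 such receptors (TNFRSF21, TNFRSF10B, TNFRSF1A and FAS), the adaptor FADD, and the initiator caspases CASP8, CASP2 and CASP9. Members were all genes of these 8 symbols with a probe on the array, out of 20046 genes with a probe of a single symbol. They had 16 probes, of which 10, from 7 genes, were detected on at least 1 array and tested. TNFRSF1A, CASP8 and 1 probe of CASP9 passed this filter only through the group in which they were higher.

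RNA came from SK-N-Be(2)C, an established human neuroblastoma cell line originally taken from bone marrow and known for amplified MYCN, and was hybridised to Illumina HumanHT-12 v4 arrays, 3 for each of 4 groups. WT were the parental cells without drug. WT-v were parental cells exposed at intervals to the histone deacetylase inhibitor vorinostat (SAHA) alone, at a low inhibitory concentration (its IC25). DoxR cells were selected in stepwise doses of doxorubicin over 6 to 12 months, up to 5 passages at about 2 log10 units above the IC50, the dose that inhibits growth to the midpoint. DoxR-v cells were selected in the same way with vorinostat given at each rise of the dose. DoxR and DoxR-v therefore came from separate selections, and how many selections were made is not given in the sources used here. The labels call the arrays of a group a triplicate and do not say that they were separate cultures, so p-values measure only the spread between these specimens.

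Each array gave a bead-summarised signal per probe and a detection p-value against its negative control probes. Between 31.3% and 36.5% of probes were detected (detection p under 0.01), the median raw signal was 98.7 to 125, and arrays of a group correlated at 0.981 to 0.993. Values below are log2 signals after background correction and quantile normalization. The lowest detected log2 signal was 5.28 to 5.77 depending on the array, and a probe's level is not set against that of another probe. The test was limma's, with p-values adjusted over all 21730 probes tested, and calls required more than a 1.5-fold change as well as an adjusted p under 0.1. Of 10 neuroblastoma markers, 9 had a probe and were detected, with a summed signal of 55800 to 61600 in DoxR arrays, where TH was not detected, against 68400 to 95000 in WT, 79600 to 98200 in DoxR-v and 80500 to 86000 in WT-v. Among 7 blood cell markers only CD14 was detected, and their sum was 247 to 306 in WT and 169 to 201 in the other groups. The sum of 7 fibroblast and endothelial markers, of which PDGFRB, DCN and on a single array COL1A1 were detected, was 320 to 325 in DoxR, 1900 to 2840 in WT, 3220 to 5050 in DoxR-v and 3630 to 4110 in WT-v. The part of these differences in the results was not tested. In bulk RNA, fewer cells with a transcript and less transcript per cell cannot be told apart.

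When ligand binds FAS, TNFRSF1A or TNFRSF10B, the receptor's death domain recruits adaptors. At FAS and TNFRSF10B, FADD brings CASP8 to the receptor, where it is activated. CASP9 is activated instead at the apoptosome, after cytochrome c leaves mitochondria, and CASP2 at a complex built on PIDD1. In neuroblastoma, and most often where MYCN is amplified, CASP8 is known to be silenced, commonly together with methylation of its regulatory DNA.

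The promoter windows of 4 members are shown because these members held the patterns described below: TNFRSF21 and TNFRSF1A were called in opposite directions in DoxR-v cells, FADD was lower than WT in 3 groups, and CASP8 was near the detection limit. Each window runs from 250 bases before to 50 after a gene's start and is taken from RefSeq (GRCh38.p14), which matched all 4 symbols. Capitals mark the GC box GGGCGG, searched on both strands, and the palindromic E-box CACGTG. The coordinates are chr6:47309856-47310155 (minus strand) for TNFRSF21, chr12:6342027-6342326 (minus strand) for TNFRSF1A, chr11:70203046-70203345 (plus strand) for FADD, and chr2:201233213-201233512 (plus strand) for the first of 3 starts listed for CASP8.
TNFRSF21: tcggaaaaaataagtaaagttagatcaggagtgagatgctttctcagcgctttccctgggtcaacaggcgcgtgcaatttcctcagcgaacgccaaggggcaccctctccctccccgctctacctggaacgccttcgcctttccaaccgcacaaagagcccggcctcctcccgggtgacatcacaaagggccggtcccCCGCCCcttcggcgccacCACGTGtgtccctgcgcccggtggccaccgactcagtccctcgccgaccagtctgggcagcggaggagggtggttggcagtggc
TNFRSF1A: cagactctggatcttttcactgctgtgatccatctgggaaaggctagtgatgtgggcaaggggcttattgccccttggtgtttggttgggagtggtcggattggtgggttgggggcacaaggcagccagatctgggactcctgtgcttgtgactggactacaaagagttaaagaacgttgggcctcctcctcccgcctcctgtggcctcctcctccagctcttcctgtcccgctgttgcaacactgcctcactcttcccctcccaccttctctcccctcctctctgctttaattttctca
FADD: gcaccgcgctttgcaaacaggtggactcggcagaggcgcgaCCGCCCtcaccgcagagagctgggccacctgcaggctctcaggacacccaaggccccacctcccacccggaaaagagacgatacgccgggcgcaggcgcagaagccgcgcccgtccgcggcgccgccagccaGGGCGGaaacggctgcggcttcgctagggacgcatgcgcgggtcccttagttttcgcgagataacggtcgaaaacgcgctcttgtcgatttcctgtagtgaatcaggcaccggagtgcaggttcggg
CASP8: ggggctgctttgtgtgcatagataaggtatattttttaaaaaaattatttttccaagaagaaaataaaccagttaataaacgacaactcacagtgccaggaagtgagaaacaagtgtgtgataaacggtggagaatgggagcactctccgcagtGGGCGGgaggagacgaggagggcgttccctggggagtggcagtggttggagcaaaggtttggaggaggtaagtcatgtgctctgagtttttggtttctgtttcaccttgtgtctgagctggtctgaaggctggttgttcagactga

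Among 35116 promoter windows of this length, 45.0% held a GC box and 7.26% the E-box, and the 2 motifs did not overlap here. TNFRSF21 held 1 of each, FADD 2 GC boxes, the first CASP8 window 1 GC box, and TNFRSF1A neither motif. CpG dinucleotides, the sites of DNA methylation, numbered 36 in FADD, 23 in TNFRSF21, 6 in CASP8 and 4 in TNFRSF1A, against a median of 14 over all windows. The other 2 CASP8 windows held 5 and 6 CpG. The motif TATAAA, searched on both strands and present in 11.5% of windows, was found in 1 of those CASP8 windows and in none of the 4 printed. Binding at these motifs and methylation were not measured.

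TNFRSF21, or death receptor 6, which is known from mouse neurons for a role in axon pruning, was lower in DoxR-v cells alone. Its log2 signals were 10.25, 10.56 and 10.99 in WT, 10.55, 10.37 and 10.61 in WT-v, 10.64, 10.53 and 10.53 in DoxR, and 8.91, 8.94 and 8.57 in DoxR-v. All 12 values were detected, the first 3 groups overlapped, and the highest DoxR-v array lay more than 1 log2 unit under the lowest of the others. TNFRSF21 was 3.47-fold lower in DoxR-v than WT (log2 difference -1.80, SE 0.18, adjusted p = 1.2e-05). It also fell against WT-v by 1.71 on the log2 scale (adjusted p = 1.9e-05) and against DoxR by 1.76 (adjusted p = 8.2e-06). DoxR and WT-v did not pass against WT, with differences of -0.03 (95% interval -0.42 to 0.36) and -0.09 (-0.48 to 0.30). The difference between the vorinostat-exposed and unexposed cells was itself unlike in the resistant and the parental background, by -1.67 (SE 0.26, adjusted p = 0.000279 by limma).

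TNFRSF1A, the main receptor for tumor necrosis factor, was detected on the 3 DoxR-v arrays and on no other array. The log2 signals were 4.98, 4.43 and 4.47 in WT, 4.54, 4.66 and 4.44 in WT-v, 4.86, 4.44 and 4.68 in DoxR, and 6.61, 6.23 and 5.91 in DoxR-v. DoxR-v did not overlap any other group. Taken against the lowest detected signal of the other arrays, TNFRSF1A was at least 1.53-fold higher in DoxR-v than in WT. It was at least 1.79-fold higher than in WT-v and at least 1.74-fold higher than in DoxR. The measured log2 differences were 1.62 (adjusted p = 6.6e-05), 1.70 (adjusted p = 4.6e-05) and 1.59 (adjusted p = 4.8e-05) by limma. TNFRSF1A entered the test only through the group where it was high, so these p-values are given as description and not as support. In the deposited normalized intensities the same differences were 0.48, 0.50 and 0.46 and stayed under the 1.5-fold threshold.

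TNFRSF10B, also called death receptor 5, binds TRAIL, the ligand encoded by TNFSF10, and is a known target of p53. It was lower than WT in all 3 treated groups. The log2 signals were 7.93, 7.39 and 7.24 in WT, 5.93, 5.94 and 6.51 in WT-v, 5.70, 6.17 and 5.98 in DoxR, and 5.72, 5.88 and 5.62 in DoxR-v, all detected. No array of a treated group reached the lowest WT array. TNFRSF10B fell by 1.57 on the log2 scale in DoxR (SE 0.21, adjusted p = 7.3e-05), by 1.39 in WT-v (SE 0.21, adjusted p = 0.000376) and by 1.78 in DoxR-v (SE 0.21, adjusted p = 4.8e-05). DoxR-v did not differ from DoxR past the threshold (-0.21, 95% interval -0.66 to 0.25), nor from WT-v (-0.39, 95% interval -0.85 to 0.07), although the DoxR-v arrays all lay under the WT-v arrays. In the deposited normalized intensities the 3 falls were smaller, at -0.69, -0.63 and -0.75, and were still called. The DoxR mean (5.95) lay close to the lowest detected signal (5.28 to 5.77 by array), which limits how far a further fall could be seen. Both other TNFRSF10B probes were detected on no array.

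**Figure D1:**
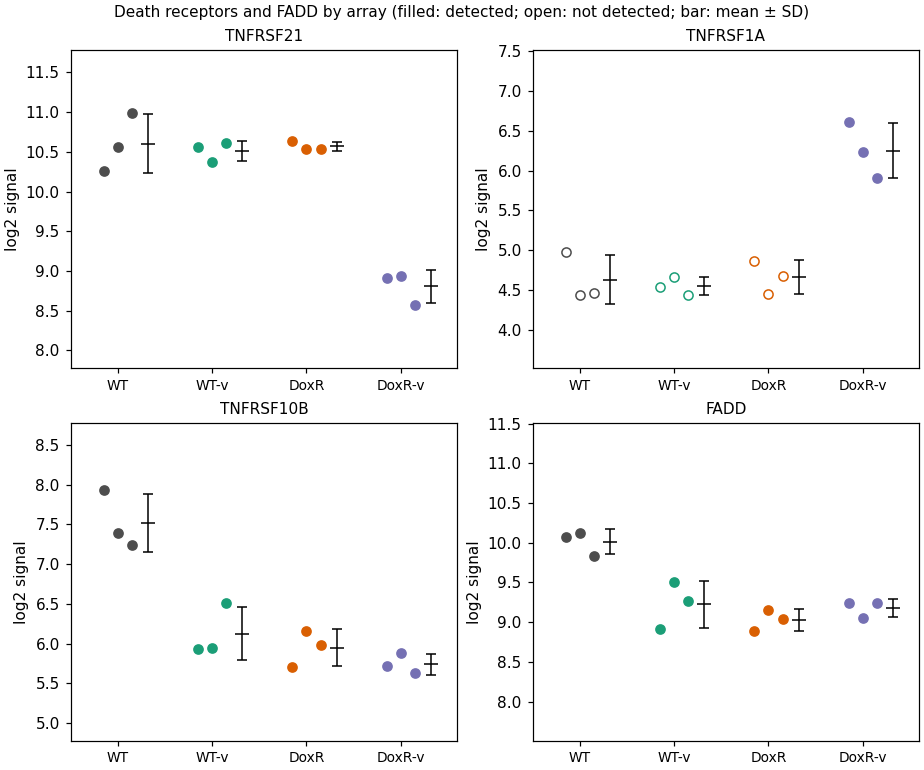
Log2 signal of the TNFRSF21, TNFRSF1A, TNFRSF10B and FADD probes on each array, by group. Points are arrays, filled where detected, and the black bar is the group mean ± SD (n = 3). All vertical axes span the same number of log2 units. TNFRSF21 was low and TNFRSF1A detected in DoxR-v alone, while TNFRSF10B and FADD were highest in WT.

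FAS, the receptor for Fas ligand, had 1 probe, which was detected on no array. Its log2 signal lay between 4.36 and 4.87, and its lowest detection p-value on any array was 0.109. FAS was therefore not tested, and a level under the background of this probe cannot be described.

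FADD, which links the receptors to CASP8, was likewise highest in WT. The log2 signals were 10.08, 10.13 and 9.83 in WT, 8.91, 9.50 and 9.27 in WT-v, 8.89, 9.16 and 9.04 in DoxR, and 9.24, 9.05 and 9.25 in DoxR-v, and WT overlapped none of the 3. FADD fell by 0.98 on the log2 scale in DoxR (SE 0.16, adjusted p = 0.000417), by 0.78 in WT-v (SE 0.16, adjusted p = 0.0031) and by 0.83 in DoxR-v (SE 0.16, adjusted p = 0.0022). DoxR-v lay at 0.15 from DoxR (95% interval -0.20 to 0.51) and at -0.05 from WT-v (-0.40 to 0.31). With arrays scaled to a common median in place of quantile normalization, FADD differed from WT by -0.73 in DoxR, -0.52 in WT-v and -0.54 in DoxR-v, and the last 2 stayed under the 1.5-fold threshold. That scaling moved the median of all genes against WT by 0.18 in DoxR, 0.24 in WT-v and 0.23 in DoxR-v.

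CASP8, the initiator caspase of the receptor pathway, was close to the detection limit or under it. One of its 4 probes was detected on 1 of 12 arrays, with a detection p-value of 0.00779, and the other 3 probes on none. That probe gave log2 signals of 4.30, 4.64 and 4.44 in WT, 4.37, 4.55 and 4.41 in WT-v, 5.48, 5.24 and 4.91 in DoxR, and 4.40, 4.56 and 4.36 in DoxR-v. The 3 DoxR arrays lay above all others, the first of them being the detected one. CASP8 passed the thresholds as higher in DoxR than WT (adjusted p = 0.00246) and lower in DoxR-v than DoxR (adjusted p = 0.00237). The probe entered the test only through that 1 DoxR array, so these p-values are given as description and not as support. The measured differences, 0.75 and -0.77, are no fold changes, since the DoxR mean did not exceed the lowest detected signal and the other groups were not detected. WT-v and DoxR-v stood at -0.02 from WT (95% interval -0.37 to 0.33 in DoxR-v). The DoxR difference was 0.26 in the deposited normalized intensities, 0.39 without background correction and 0.35 with a normexp offset of 50, all under the 1.5-fold threshold.

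CASP9, the initiator caspase of the apoptosome, had a pair of probes, annotated to different RefSeq transcripts, that went opposite ways. The probe with the higher mean was detected on all 3 DoxR arrays, 1 WT array and none of WT-v or DoxR-v. Its log2 signals were 5.61 to 5.91 in DoxR but 4.64 to 5.23 in DoxR-v, and these did not overlap. It was at least 1.13-fold lower in DoxR-v than in DoxR (measured log2 difference -0.72, SE 0.22, adjusted p = 0.0212). The second probe was detected on a single WT array. It was called lower in DoxR than WT, by at least 1.05-fold (measured log2 difference -0.74, SE 0.20, adjusted p = 0.0105). This probe entered the test only through that WT array, in the group where it was highest. Its p-values are therefore given as description and not as support. It was called higher in DoxR-v than DoxR (0.59, SE 0.20, adjusted p = 0.0369) with neither of those groups detected, so that difference measures no size. The mean of both probes differed by -0.06 between DoxR-v and DoxR and was not called, and without the second DoxR-v array the first probe's call was lost (-0.54).

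CASP2, which is activated at the PIDD1 complex, was the caspase with signals well above background. Its main probe gave log2 signals of 11.29, 11.09 and 11.29 in WT, 11.40, 11.46 and 11.52 in WT-v, 11.74, 11.69 and 11.74 in DoxR, and 11.46, 11.51 and 11.25 in DoxR-v. DoxR lay above every other group without overlap, 1.42-fold over WT (log2 0.50, SE 0.13, adjusted p = 0.00709), which passed on p and stayed under the 1.5-fold threshold. Another of its 3 probes, annotated to a different transcript, was called higher in DoxR by 0.73 (SE 0.16, adjusted p = 0.00306), and the third by 0.68 (SE 0.29, adjusted p = 0.0852). With the mean of the 3 probes (0.64) or with median scaling (0.65) CASP2 was called. DoxR-v stood at 0.18 from WT and -0.32 from DoxR on the main probe (adjusted p = 0.0752, under 1.5-fold), while the third probe was called lower in DoxR-v than DoxR (-0.72, adjusted p = 0.0796) with overlapping arrays.

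**Figure D2:**
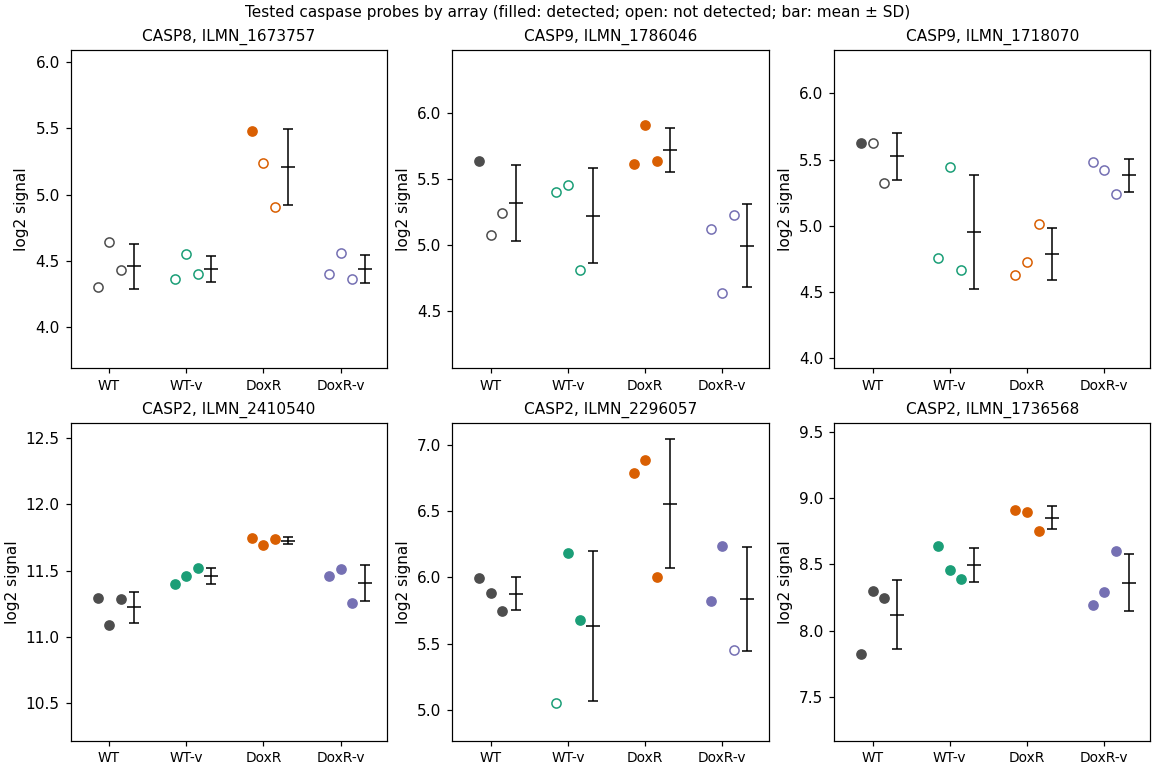
Log2 signal of each tested caspase probe on each array, by group (points, filled where detected) with the group mean ± SD (n = 3, black bar). All vertical axes span the same number of log2 units. The 2 CASP9 probes moved in opposite directions between DoxR and DoxR-v, and the CASP2 main probe was highest in DoxR.

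Counted by gene, 1 of the 7 tested members (CASP8) was called higher in DoxR than WT, where 17.4% of 12138 genes were, and 2 (TNFRSF10B and FADD) lower, where 16.3% were. In WT-v the same pair was called lower than WT (12.5% of genes were) and no member higher by limma on its main probe, nor at an unadjusted p under 0.05 (14.5% of genes were called higher), while a second CASP2 probe passed that unadjusted threshold at 0.37, under 1.5-fold. In DoxR-v, 1 member (TNFRSF1A) was called higher than WT (13.3% of genes) and 3 (TNFRSF21, TNFRSF10B and FADD) lower (12.6%). Against DoxR, 1 was higher (TNFRSF1A, 14.7% of genes) and 3 lower (TNFRSF21, CASP8 and CASP9, 14.4%). Against WT-v, 1 was higher (TNFRSF1A, 12.6% of genes) and 1 lower (TNFRSF21, 12.8%). The 3 comparisons with WT use the same WT arrays, and with 7 genes these counts describe the members and were not tested against the background. TNFRSF1A and CASP8 entered these counts only through the group in which they were high. Median scaling moved the share of all called genes that were higher from 51.7% to 72.6% in DoxR, from 53.6% to 80.2% in WT-v, from 51.3% to 80.5% in DoxR-v against WT, and from 48.0% to 33.2% for the difference of the vorinostat differences.

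**Figure D3:**
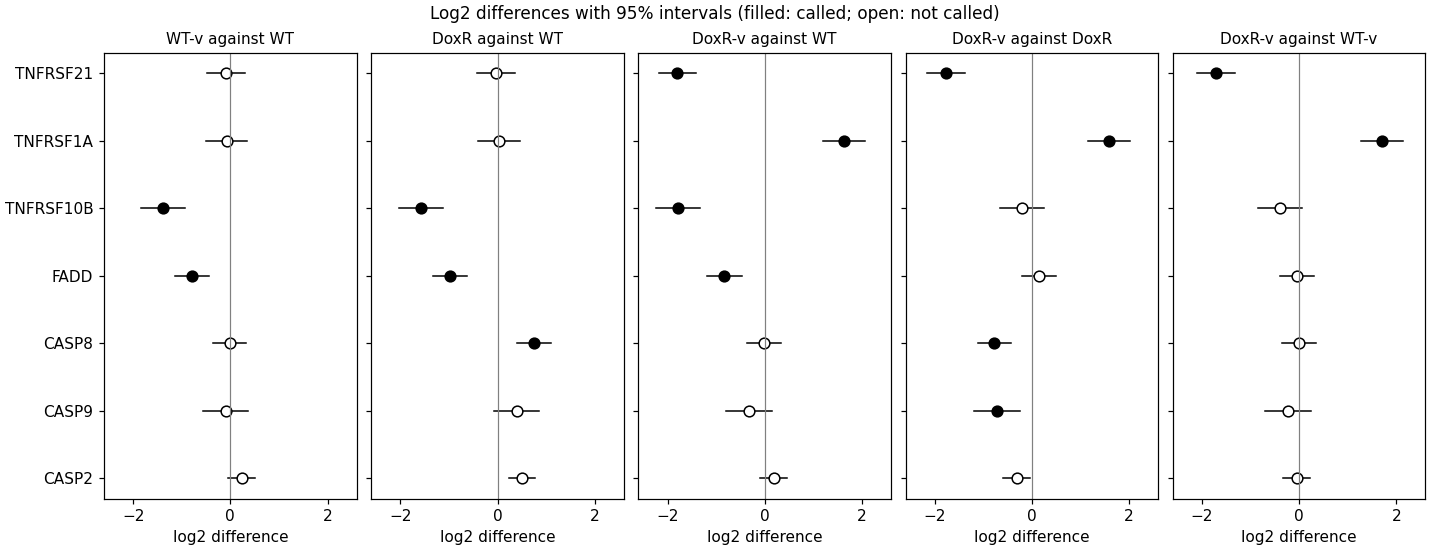
Log2 difference of each member's main probe in 5 comparisons (one panel each). Points are the fitted differences, filled where called, and lines the 95% intervals (limma, 3 arrays a group). The DoxR-v panels show TNFRSF21 to the left of 0 and TNFRSF1A to the right, and the first 3 panels show TNFRSF10B and FADD to the left.

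The direct test of whether vorinostat-exposed and unexposed cells differed unlike in the 2 backgrounds (DoxR-v minus DoxR compared with WT-v minus WT) called 5 of the 7 members, where 42.4% of genes were called in either direction. Separate selection of DoxR and DoxR-v enters this difference. The difference was positive for TNFRSF10B (1.18, adjusted p = 0.00782) and FADD (0.94, adjusted p = 0.00724) and negative for TNFRSF21 (-1.67). TNFRSF1A (adjusted p = 0.000599, positive) and CASP8 (adjusted p = 0.0206, negative) were also called, but both were under detection in at least 3 of the 4 groups and passed the filter only through the group where they were high, so the size of their difference is not measured here. With median scaling CASP2 and CASP9 were called as well. For TNFRSF10B and FADD the exposed parental cells were lower than WT, whereas DoxR-v was not called against DoxR. For TNFRSF10B the DoxR mean (5.95) was already close to the lowest detected signal (5.28 to 5.77 by array), which limits this difference. In the deposited normalized intensities the differences of TNFRSF10B (0.56), TNFRSF1A and CASP8 stayed under the 1.5-fold threshold.

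Across the 12 arrays, the signals of TNFRSF21 and TNFRSF1A correlated at -0.937, both read from the same arrays, with the DoxR-v arrays apart from the rest in both. By Pearson correlation over the same 12 arrays and 12138 genes, the gene most like TNFRSF21 was CALD1, the actin-binding protein caldesmon (r = 0.978), followed by ZNF480 (0.964) and POPDC2 (0.961). The closest to TNFRSF1A were DNAH2 (0.973), GPR4 (0.967) and YBX3 (0.960), to TNFRSF10B GCGR (0.966), KLK4 (0.963) and WFS1 (0.959), and to FADD TBL1X (0.972), MYOM2 (0.963) and GBGT1 (0.959). CASP8 was closest to SEMA5A (0.964), CASP2 to ASAP1 (0.967) and CASP9 to THAP10 (0.906, the lowest of these first ranks). CASP8 was detected on 1 of the 12 arrays, TNFRSF1A on 3 and CASP9 on 4. Their correlations therefore rest mostly on signals under detection.

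The rest of the pathway was read from 9 lists of ligands, receptors, adaptors, caspases, inhibitors, substrates and necroptosis genes. Of 55 genes, 49 had a probe with that symbol and 33 were tested. Against WT, 10 of the 33 rose in DoxR (17.4% of all genes did) and 2 fell (16.3%). In WT-v 4 rose (14.5%) and 5 fell (12.5%), and in DoxR-v 4 rose (13.3%) and 2 fell (12.6%). Against DoxR, 5 rose (14.7%) and 4 fell (14.4%) in DoxR-v. These counts take 1 probe a gene and were not tested against the shares of all genes. The median log2 difference of the 33 was -0.02 in DoxR, 0.23 in WT-v and 0.12 in DoxR-v against WT, and -0.14 in DoxR-v against DoxR, beside 0.01, 0.03, 0.02 and 0.00 over all genes. With median scaling the counts against WT were 10 higher and 1 lower in DoxR, 11 and 4 in WT-v, and 12 and 1 in DoxR-v. With the deposited normalized intensities they were 5 higher and none lower, 2 and 2, and 3 and 1, and in both settings no called gene changed sign.

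Ligands and further receptors were mostly under detection. FASLG, TNFSF10 and TNF, ligands of FAS, TNFRSF10B and TNFRSF1A, and TNFSF12 were detected on no array, and neither were the death domain receptors TNFRSF10A, TNFRSF25, NGFR and EDAR. Of the other ligands listed, LTA was detected on 1 WT and 1 DoxR array and TNFSF15 on all arrays. Neither was called in any comparison. The decoy receptor TNFRSF10C, which binds TRAIL without a death domain, fell in DoxR by 0.68 (adjusted p = 0.00943), a call lost with median scaling (-0.46) and in the deposited normalized intensities (-0.18).

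Among 8 tested adaptors, CFLAR and CRADD were lower than WT in both groups that had received vorinostat. CFLAR, which competes with CASP8 at the receptor complex, fell by 1.24 in WT-v (adjusted p = 0.0302) and by 1.12 in DoxR-v (adjusted p = 0.0495), and was called lower in DoxR-v than DoxR (-1.02, adjusted p = 0.0672), while these calls were lost in the deposited normalized intensities. The DoxR-v arrays of CFLAR overlapped those of WT and of DoxR, and it was detected on 2 of 3 arrays in WT-v and in DoxR-v. CRADD, which links CASP2 to PIDD1, fell by 1.28 in WT-v (adjusted p = 0.000223) and by 0.86 in DoxR-v (adjusted p = 0.00328), the second call being lost with median scaling (-0.54). TRADD, the adaptor of TNFRSF1A, was detected on no WT array and was at least 1.51-fold higher in DoxR (adjusted p = 0.00181), and it was lower in DoxR-v than DoxR by 0.76 (adjusted p = 0.0126). In the deposited normalized intensities the TRADD differences were 0.28 and -0.22 and were not called. FAF1, which binds FAS, rose by 0.79 in WT-v, and its second probe by 1.18. DEDD, a death effector domain protein, rose by 0.63 in DoxR on its main probe, while its other probes stood at 0.19 and 0.44, and the call was lost in the deposited normalized intensities (0.56).

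Among the other caspases and the apoptosome genes, CASP4, CYCS and APAF1 were called. CASP4, an inflammatory caspase, was detected on 2 WT arrays, on none of WT-v or DoxR and on all 3 DoxR-v arrays. It was at least 1.56-fold lower in DoxR than WT (adjusted p = 0.0016), at least 1.60-fold lower in WT-v (adjusted p = 0.0215) and at least 1.87-fold higher in DoxR-v than DoxR (adjusted p = 0.000496), and these calls were lost in the deposited normalized intensities. CYCS, which encodes cytochrome c, rose in DoxR-v by 0.99 against WT (adjusted p = 0.00196) and by 1.02 against DoxR (adjusted p = 0.00109). APAF1, the scaffold of the apoptosome on which CASP9 is activated, rose against DoxR by 0.66 (adjusted p = 0.0171) on its main probe, a call lost in the deposited normalized intensities (0.42), and its second probe, detected in neither group, stood at 0.05.

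Of 8 tested inhibitors and their antagonists, 4 rose in DoxR, where 17.4% of all genes did. BIRC2, an inhibitor of apoptosis protein, rose by 1.13 in DoxR (adjusted p = 5.2e-05) and by 0.64 in WT-v (adjusted p = 0.00508), and fell by 0.80 on the log2 scale in DoxR-v against DoxR (adjusted p = 0.000879), and its second probe was called in the same 3 directions. The WT-v call of the main probe was lost in the deposited normalized intensities (0.56). XIAP, which blocks CASP9, was detected on all DoxR arrays and on none of WT or DoxR-v, being at least 1.40-fold higher than WT (adjusted p = 0.052) and at least 1.49-fold above DoxR-v (adjusted p = 0.0149). BIRC6 rose by 0.60 in DoxR. In the deposited normalized intensities the XIAP differences were 0.18 and -0.23 and that of BIRC6 was 0.38, and these calls were lost. AVEN, an inhibitor that binds APAF1, rose by 0.95 in DoxR (adjusted p = 0.000601) and by 1.16 in DoxR-v (adjusted p = 0.000224). DIABLO, which releases caspases from XIAP, fell by 0.59 in WT-v on its main probe, a call lost with median scaling, and its other probes stood at -0.57 and -0.27, under the 1.5-fold threshold. BIRC5 (survivin) rose by 0.66 in DoxR-v against DoxR on its main probe, which was lost in the deposited normalized intensities (0.58), while its second probe, detected on all arrays, stood at -0.04.

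The list of caspase substrates held 6 genes, among them DFFB, the nuclease whose inhibitor DFFA is cleaved. On their main probe, 3 of the 6 were called higher in DoxR than WT (17.4% of all genes were). In WT-v 2 were higher (14.5%), in DoxR-v 1 (13.3%), and in DoxR-v against DoxR 1 (14.7%). None was lower in these 4 comparisons, in which DFFB and BID were not called. In DoxR-v against WT-v 1 was higher (12.6%) and 1 lower (12.8%). The difference of the vorinostat differences called 1 higher and 4 lower, where 42.4% of genes were called in either direction. The other BID probes went different ways, one falling by 1.12 in DoxR and 0.94 in DoxR-v against WT and the other rising by 0.81 in WT-v. ROCK1, a kinase of membrane blebbing, was higher than WT in all 3 groups (0.99 in DoxR, 1.21 in WT-v and 0.99 in DoxR-v), but these calls were lost in the deposited normalized intensities (0.35, 0.45 and 0.35), and its second probe was called in DoxR and DoxR-v and not in WT-v (0.30). LMNB1, a nuclear lamin, rose by 0.95 in DoxR and 1.29 in WT-v. PARP1 rose by 0.67 in DoxR, and DFFA, the inhibitor of the apoptotic nuclease, by 0.88 in DoxR-v against DoxR on its main probe, with its other probes not called (0.44 and 0.04). MLKL, the executor of necroptosis, rose by 1.47 in DoxR (adjusted p = 0.000135) and 1.34 in DoxR-v (adjusted p = 0.000473) and fell by 0.97 in WT-v (adjusted p = 0.00403), where it was detected on 1 of 3 arrays and where the call was lost in the deposited normalized intensities (-0.27). RIPK3, the kinase that activates MLKL, was detected on no array.

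**Figure D4:**
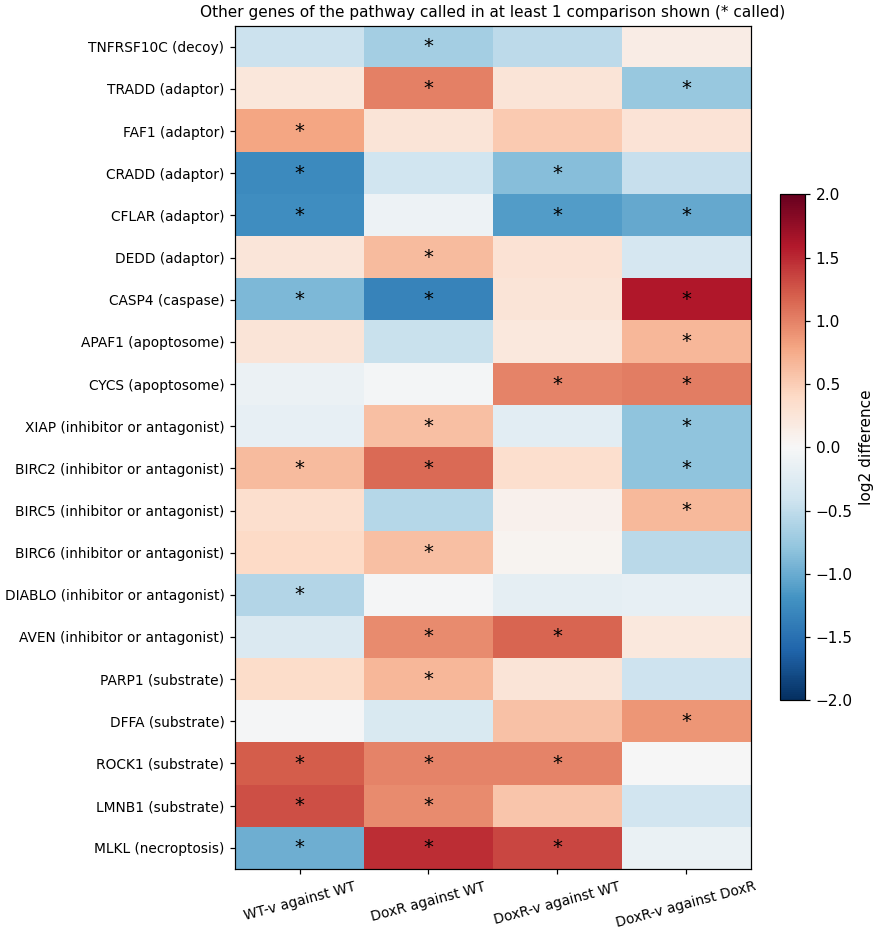
Log2 difference (colour) of the 20 other pathway genes called in at least 1 of the 4 comparisons shown in columns, with an asterisk where called (limma, 3 arrays a group). MLKL and BIRC2 were called higher in DoxR, and CASP4 was called lower in DoxR and higher in DoxR-v than DoxR.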

How the data were processed

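Total RNA of 12 SK-N-Be(2)C specimens (WT, WT-v, DoxR and DoxR-v, 3 each) was profiled on HumanHT-12 v4 BeadChips. The authors deposited probe signal intensities that were not normalized, quantile normalized intensities, and a detection p-value for each signal, as given per the file headers. Upstream tools named in the submitters' processing notes were lumi 2.13.3 with R 3.0.1. The software that summarised beads is not given in the sources used here.

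Signal intensities as deposited were background-corrected with normexp using those p-values (offset 16), then quantile normalized and log2 transformed (neqc, limma 3.58.1, R 4.3.3). Background correction widens differences of dim probes, which are smaller in the deposited normalized values. Of 47323 probes, 30113 had 1 gene symbol, 8 several and 17202 none, and 30074 were updated through Entrez IDs. Probes detected (p-value under 0.01) on any of the arrays were tested (21730, of which 16412 with 1 symbol gave 12138 genes). A gene took its tested probe with the highest mean. Groups were compared with 1 mean per group over all 12 arrays, empirical Bayes and Benjamini-Hochberg adjustment over all probes. Calls needed more than a 1.5-fold change and an adjusted p under 0.1. Where a group was detected on none of its arrays, the fold was taken against the higher, per array, of the lowest detected signal and the probe's own signal, and is written as at least that value. An adjusted p printed beside such a fold belongs to the measured difference. With 3 arrays a group, the number of arrays limits the precision.

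Named genes were all members, other pathway genes called against WT or in DoxR-v against DoxR, and the 3 genes of most like pattern for each member. The members and lists were chosen with earlier results of these data known. The test was checked on simulated data. Alternatives were signals without background correction, the deposited normalized values, an offset of 50 in normexp, arrays scaled to their median, filters of 3 detected arrays or none, fits of the compared groups alone, the replicate number as a block, averaged probes, thresholds of 2-fold or an adjusted p under 0.05, and the omission of each array. The 2 scalings were extended to the other pathway genes after seeing the data.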

Additional observations from a re-analysis of the deposited data

Results flagged for a closer look

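For each member, the difference between vorinostat-exposed and unexposed cells was compared between the resistant and the parental background. The limma contrast was DoxR-v minus DoxR compared with WT-v minus WT, and 7 of the 10 tested probes passed. By main probe, 3 of the 7 tested members were called higher and 2 lower, where 42.4% of all genes were called in either direction. These counts were not tested against that share. The difference was -1.67 for TNFRSF21, 1.18 for TNFRSF10B, 1.67 for TNFRSF1A and 0.94 for FADD on the log2 scale. It was -0.75 for the CASP8 probe, which was detected on a single array, and neither this nor the TNFRSF1A value measures a size, since most of their arrays were under detection. A CASP2 probe other than the main one gave -0.87, and the second CASP9 probe, detected on a single WT array, gave 1.16. That CASP9 probe passed the filter only through WT, where it was highest, so its value measures no size either. The main CASP9 probe went the other way (-0.62) and was not called. The TNFRSF10B value is limited by DoxR signals close to the lowest detected signal.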

How the results depend on the processing

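The replicate block changed no call of a member; with 18 pairs of arrays of the same replicate number, deviations from the group means correlated at -0.271 to 0.114, 1 of 12 arrays correlated best with its own number, and TNFRSF21 in DoxR-v against WT stayed at -1.80 with the block. For the counts of called members, the deposited normalized values gave 1 in DoxR-v against DoxR, 1 in DoxR-v against WT-v and 2 for the difference of the vorinostat differences. Dropping the background correction and an offset of 50 each gave 2 in DoxR-v against DoxR, and median scaling gave 1 in WT-v against WT. A fold change over 2 gave 1 in DoxR, 1 in WT-v, 2 in DoxR-v against DoxR and 3 for the difference of differences. The calls of CASP8 and TNFRSF1A, detected in a single group, those of CASP9, and the TNFRSF10B difference of differences were lost with the deposited values, and CASP8 was not tested with detection on at least 3 arrays. The cause was not tested.

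Some differences that did not pass in the report changed sign. With the deposited values CASP8 was 0.0041 in WT-v and 0.0018 in DoxR-v against WT, and without background correction 0.0076 and 0.0041. With median scaling TNFRSF21 was 0.20 in DoxR and 0.14 in WT-v against WT, CASP9 0.029 in WT-v, and CASP8 0.0557 in DoxR-v against WT-v. With the mean of probes CASP9 was -0.17 in DoxR, 0.10 in DoxR-v against WT-v and 0.27 for the difference of differences, and CASP2 0.0059 in DoxR-v against WT-v. On the main probe the CASP9 difference of differences was -0.62. With median scaling it kept that sign and was called (-0.77, adjusted p = 0.075 by limma). That of CASP2 was called with median scaling (-0.65) and with the mean of probes (-0.63). Leaving out 1 array, ranges that crossed 0 against WT were -0.21 to 0.16 (TNFRSF21) and -0.065 to 0.213 (TNFRSF1A) in DoxR, -0.27 to 0.11 (TNFRSF21), -0.18 to 0.10 (TNFRSF1A), -0.0964 to 0.073 (CASP8) and -0.22 to 0.11 (CASP9) in WT-v, and -0.0982 to 0.0712 (CASP8) in DoxR-v. Against WT-v, DoxR-v ranged from -0.205 to 0.0911 (FADD), -0.061 to 0.0536 (CASP8) and -0.102 to 0.028 (CASP2). Without 1 array the counts of called members ranged from 3 to 4 in DoxR-v against DoxR and from 5 to 7 for the difference of differences, where CASP2 was called without WT replicate 1 (-0.59) or DoxR-v replicate 2 (-0.60), and CASP9 without WT replicate 1 (-0.78) or WT-v replicate 3 (-0.83). Signals near background limit what can be said of FAS, CASP8 and CASP9.

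Over all 12138 genes, the calls in DoxR, WT-v and DoxR-v against WT, in DoxR-v against DoxR and against WT-v, and for the difference of differences were 4091, 3285, 3138, 3536, 3088 and 5149. They were 1962, 1398, 1315, 1743, 1341 and 2933 with the deposited values, and 1785, 1130, 1073, 1482, 1121 and 2807 with a fold change over 2. Without background correction they were 2341, 1709, 1655, 2100, 1626 and 3480.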
